A study of Mus musculus and Homo sapiens with 41 samples.

Results

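Knockdown of MBD6 was studied in TET2-knockout (KO) K-562 cells, and the comparison takes in 6 of the 41 libraries of the series. They are 3 libraries of TET2 KO cells given siRNA against MBD6 (siMBD6) and 3 of the same KO line given a non-targeting siRNA (siNC), chosen by their titles alone. Another pair of K-562 groups, with 3 libraries each, was set beside them, namely TET2 KO cells given siRNA against NSUN2 (siNSUN2) and wild-type (WT) cells given siNC. All 12 libraries came from CUT&Tag, in which an antibody guides a transposase to cut and tag the DNA around a chromatin feature, here histone H2A ubiquitylated on a lysine of its C-terminal tail (H2AK119ub). K-562 is an established human erythroleukaemia line that carries the BCR-ABL1 fusion. Both its WT and its TET2 KO form were received from another laboratory, siRNAs were delivered by nucleofection, and the sources used here do not say whether siMBD6 was a pool or a single duplex, nor how many clones the KO line holds.

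H2AK119ub is written by the Polycomb complex PRC1, found above all over CpG-rich promoters, and linked to gene silencing. It is removed by PR-DUB, a complex of the deubiquitylase BAP1 with an ASXL scaffold, and MBD6 is a methyl-CpG-binding domain protein that joins this complex and recognises 5-methylcytosine (m5C) in RNA. TET2 oxidises m5C in chromatin-associated RNA, and NSUN2 is an RNA methyltransferase that deposits it. The comparison asks how H2AK119ub changed when MBD6 was depleted in cells that lack TET2.

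Each library was given as its own list of broad peaks, so what was measured is the length and the place of called peaks. Sequencing depth is unknown, and a stretch outside every peak is listed at 0, be it without the mark or without enough reads. Labels number the replicates 1 to 3 without saying whether they were separate cultures, and p-values then measure only the spread between these libraries. Several technical measures moved with the groups. Peaks on the Drosophila chromatin added to each sample numbered 100, 100 and 93 in siMBD6 libraries, against 123, 147 and 142 in siNC libraries. The shortest peak was 269, 266 and 230 bases in siMBD6 libraries, against 287, 284 and 282 bases in siNC libraries. Neither pair of ranges overlapped, and the part of both measures in the results that follow was not tested. The third siMBD6 library and the third siNSUN2 library stood apart from their groups in the same way, with a shortest peak of 230 and 228 bases (257 to 269 in numbers 1 and 2 of both groups), a median width of 290 and 289 bases (337 to 345) and less cover. No label ties libraries of the same number to a shared batch. Libraries of the same group shared more of their covered bases (shared over combined length 0.315 to 0.336 among siMBD6 and 0.317 to 0.323 among siNC libraries) than a siMBD6 and a siNC library did (0.285 to 0.304). A siMBD6 and a siNSUN2 library shared 0.301 to 0.346, a range that takes in the agreement among siMBD6 libraries.

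The labels could be checked only in part. MBD6 and TET2 had no peak within 5 kb of their transcription start site (TSS) in any of the 12 libraries, and peaks do not measure RNA, so neither the knockdown nor the knockout can be read from these data. The stretch from MTAP to DMRTA1 on chromosome 9 (chr9:21802636-22455740, hg38), which holds CDKN2A and is known to be deleted in K-562, had 0 peaks in the 12 libraries, where the mean density of chromosome 9 would give 7.17. That number is a sum over 12 libraries that list many of the same regions, so this check is weak. Of 14 genes typical of K-562, 5 had a peak near the TSS in some siMBD6 library and 2 in some siNC library, with a summed cover of 0.488 to 1.33 kb in siMBD6 and 0.656 to 0.840 kb in siNC libraries. As markers of other cells, 5 myeloid and 5 fibroblast genes were at 0 in all 6 libraries. Of all protein-coding genes only 18.0% had a peak within 5 kb of the TSS in any of the 6 libraries. Marker counts this small therefore cannot tell cell types apart.

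H2AK119ub peaks covered more of the genome after MBD6 knockdown. Peaks on the autosomes, X and Y covered 1.30, 1.42 and 0.988 Mb in siMBD6 libraries, against 0.849, 0.964 and 0.838 Mb in siNC libraries. The groups did not overlap, although the third siMBD6 library lay close to the highest siNC library. The means were 1.23 ± 0.221 Mb and 0.884 ± 0.0701 Mb (SD, n = 3 each), 1.40 times as much in siMBD6, with an exact two-sided permutation p of 0.1. That is the smallest p that 3 against 3 libraries can give, so no comparison of this kind could reach 0.05. Peaks numbered 3413, 3767 and 3035 in siMBD6 libraries, against 2064, 2351 and 2073 in siNC libraries, again with no overlap (1.57 times, exact permutation p = 0.1). Peaks whose mean −log10 q was at least 5 numbered 1105, 1309 and 1008 in siMBD6 libraries and 608, 684 and 633 in siNC libraries, 1.78 times as many.

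Many of the added peaks lay at gene starts. Of 20033 protein-coding promoters (within 1 kb of the TSS), 1535, 1718 and 1498 touched a peak in siMBD6 libraries, against 828, 953 and 799 in siNC libraries. Every siMBD6 library lay far above every siNC library, with means of 1584 ± 118 and 860 ± 81.8 (SD, n = 3 each), a ratio of 1.84 and an exact permutation p of 0.1. This measure was added after the data were seen. When only the 1900 peaks of highest q in each library were kept, the log2 ratio was 0.30, next to 0.88 over all peaks. In at least 2 of 3 libraries, 1387 promoters were covered in siMBD6 and 692 in siNC, of which 622 were the same promoters, 765 were in siMBD6 alone and 70 in siNC alone.

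**Figure D1:**
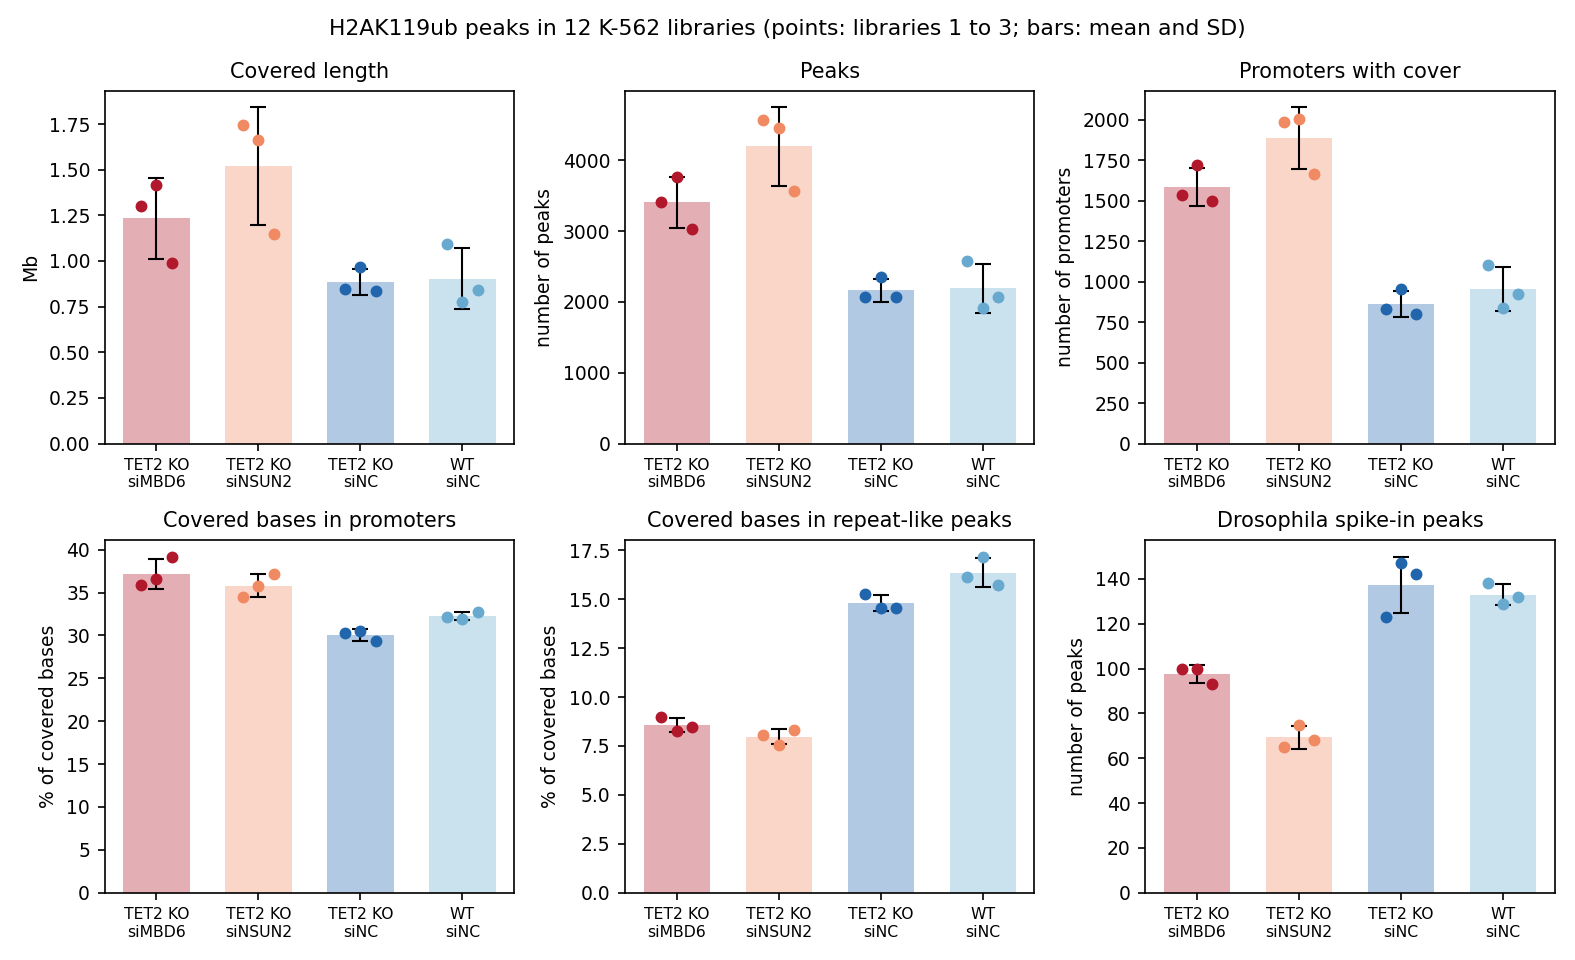
Covered length (Mb), peaks, promoters with a peak, promoter and repeat-like shares of covered bases (%) and Drosophila spike-in peaks in the 12 K-562 libraries (points, 1 per library; bars, group mean with SD). The 3 siMBD6 libraries cover 0.988 to 1.42 Mb and 1498 to 1718 promoters, above the 3 siNC libraries (0.838 to 0.964 Mb and 799 to 953 promoters), and have fewer spike-in peaks (93 to 100, against 123 to 147).

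Most of the added cover near genes stood close to the TSS. In steps of 200 bases, cover over all protein-coding genes was highest in the step centred 100 bases upstream of the TSS, where 5.12 ± 0.449% of bases lay in a peak in siMBD6 libraries and 2.71 ± 0.254% in siNC libraries (SD, n = 3 each). The ranges were 4.77 to 5.63% and 2.55 to 3.00%. In the step centred 100 bases downstream the means were 2.91% and 1.60%, and in the step centred 900 bases upstream 0.108% and 0.0853%. Further out little was covered in either group, and the ratio was not always smaller. In the step centred 2100 bases upstream the means were 0.0808% and 0.0340%, with ranges of 0.0586 to 0.103% and 0.0229 to 0.0488% that did not overlap.

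**Figure D2:**
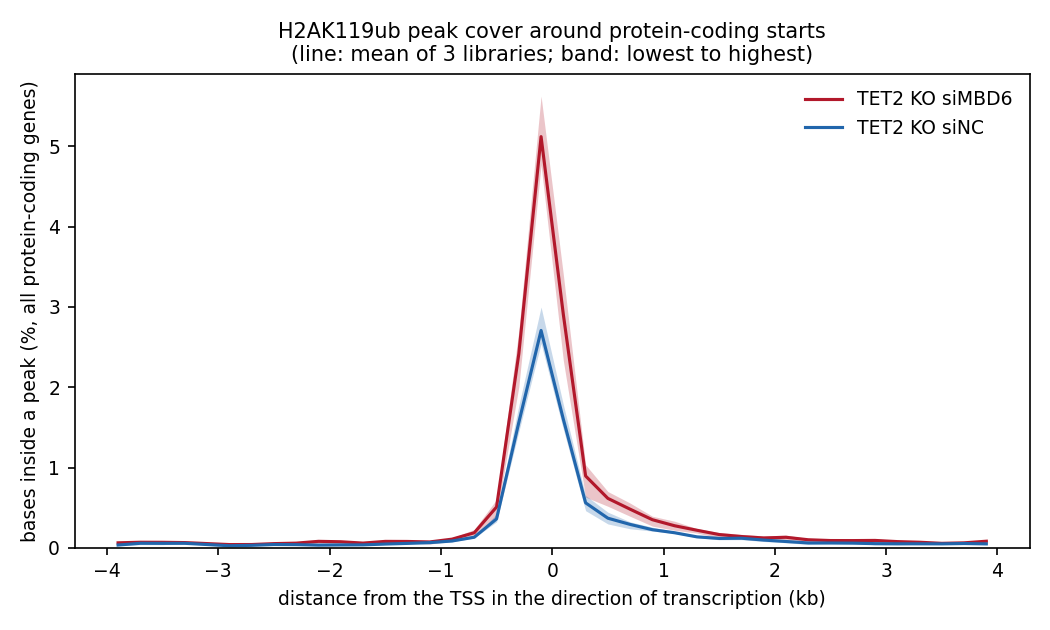
Share of bases inside an H2AK119ub peak (%) against distance from the TSS in the direction of transcription (kb), over 20033 protein-coding genes; lines are means of 3 libraries and bands run from the lowest to the highest. Both groups peak 100 bases upstream of the TSS, at 5.12% in siMBD6 and 2.71% in siNC.

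The peaks also fell differently over genome features. The promoter share of covered bases was 35.9, 36.5 and 39.2% in siMBD6 libraries, against 30.3, 30.6 and 29.3% in siNC libraries, where promoters make up 1.19% of the genome. The difference of 7.15 percentage points separated the groups fully (exact permutation p = 0.1, 0.133 after Benjamini-Hochberg adjustment over 8 features). The intergenic share was 24.5, 22.7 and 22.4% in siMBD6 libraries and 28.5, 28.7 and 29.0% in siNC libraries, and the intron share 30.8, 31.8 and 30.1% and 32.6, 32.6 and 33.4%. Both shares were lower in every siMBD6 library than in any siNC library (adjusted exact permutation p = 0.133 each). The 4 shares of a library add up to its whole cover, and in length neither feature lost cover on average. Promoters held 457 ± 65.4 kb in siMBD6 and 266 ± 25.8 kb in siNC libraries, introns 383 ± 77.8 and 290 ± 21.1 kb, and intergenic sequence 287 ± 56.9 and 254 ± 19.6 kb (SD, n = 3 each). Promoter lengths did not overlap (exact permutation p = 0.1), while intron and intergenic lengths did (exact permutation p = 0.2 and 0.4). Exons took 8.69 ± 0.375% and 8.38 ± 0.25% (SD, n = 3 each) in siMBD6 and siNC libraries, with overlapping values.

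Peaks in siMBD6 libraries were also richer in CpG, while GC content overlapped between the groups. They held 57.2, 58.6 and 60.3 CpG per kb in siMBD6 libraries, against 53.8, 53.8 and 54.1 in siNC libraries. Their GC content was 62.9 ± 0.329% in siMBD6 and 62.8 ± 0.180% in siNC libraries (SD, n = 3 each), with overlapping values (exact permutation p = 0.6). Promoters were split into 5 equal groups by their CpG density. In the group of lowest density, 0.316% of promoters had a peak in siMBD6 and 0.216% in siNC libraries. In the middle group the shares were 11.4% and 5.56%, a ratio of 2.05, and in the group of highest density 11.95% and 6.65%, a ratio of 1.80. Mean cover was thus higher in siMBD6 in each group, and nearly absent from CpG-poor promoters in both groups.

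Repeated sequence took a smaller share of cover in siMBD6. A peak was counted as repeat-like when at least 60% of its bases equalled the base a fixed distance of 10 to 150 bases further on, a measure added after the data were seen. Such peaks made up 8.98, 8.25 and 8.47% of covered bases in siMBD6 libraries, against 15.3, 14.6 and 14.5% in siNC libraries (difference −6.24 percentage points, exact permutation p = 0.1). Their number was 264, 265 and 223 in siMBD6 and 270, 294 and 260 in siNC libraries, which overlap. Taken as length (share times covered length), repeat-like cover was lower in every siMBD6 library than in any siNC library. This length was not tested. Peaks within 100 kb of an assembly gap took 6.79, 6.25 and 6.87% of covered bases in siMBD6 libraries and 10.0, 9.91 and 10.4% in siNC libraries, next to 6.18% of the genome. With peaks near gaps left out, and under each other setting run, the promoter share was 5.86 to 9.19 percentage points higher in siMBD6.

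Merging the peaks of the 6 libraries gave 7093 regions. Of these, 165 had a peak in all 3 siMBD6 and in no siNC library (2.33%), 19 had a peak in no siMBD6 and in all 3 siNC libraries (0.268%), and 690 had a peak in all 6. The first class lay close to genes, with 84 regions touching a promoter, 34 an exon, 20 an intron and 27 between genes, at a median of 0.761 kb from the nearest TSS and 73.5 CpG per kb. Over all 7093 regions 34.98% touched a promoter, 7.15% were repeat-like and the median was 47.8 CpG per kb. The 19 regions of siNC libraries touched no promoter, with 1 in an exon, 7 in introns and 11 between genes, at a median of 33.1 kb from a TSS and 25.9 CpG per kb. Repeat-like regions numbered 2 of 165 in the first class, 8 of 19 in the other and 96 of the 690 shared regions. Of the 165 regions, 34 were also listed in at least 2 WT siNC libraries and 79 in none. In siNSUN2, 122 of the 165 were listed in at least 2 libraries and 13 in none, so most are not particular to MBD6 knockdown.

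**Figure D3:**
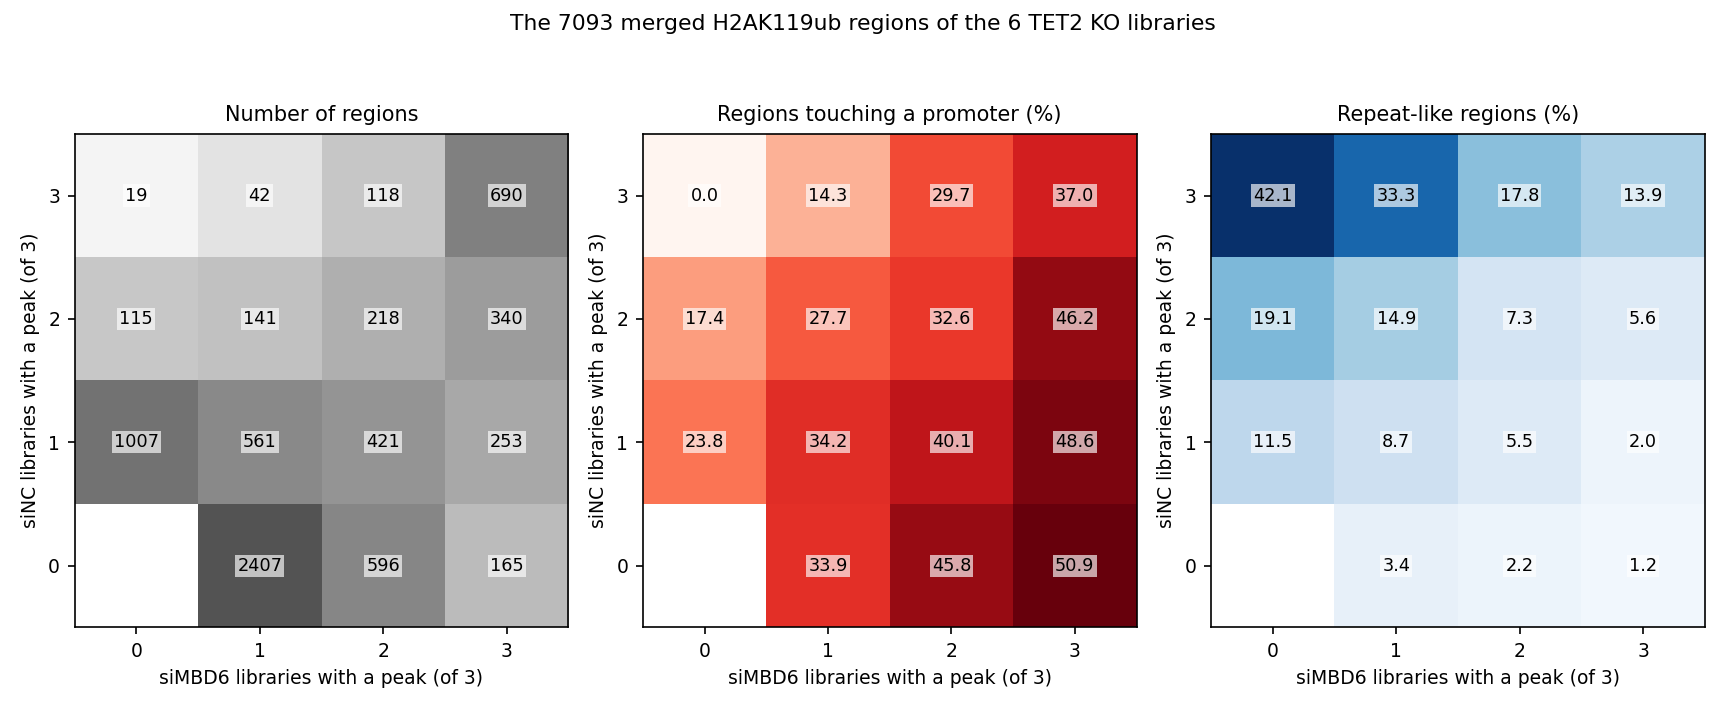
Merged regions by the number of siMBD6 libraries (x axis, of 3) and siNC libraries (y axis, of 3) in which they have a peak: number of regions, share touching a promoter (%) and share that is repeat-like (%). Promoters make up 50.9% of the 165 regions in 3 siMBD6 and 0 siNC libraries and 0.0% of the 19 in 0 siMBD6 and 3 siNC libraries, where 42.1% are repeat-like.

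Sequences from the widest promoter regions of the siMBD6 class are given, and the widest region of the siNC class is set beside them. No region of the siNC class touched a promoter, so the choice itself sets promoters against an intron. The widest siMBD6 region of all, between genes on chromosome 22, held 19.2 CpG per kb, next to 17.1 in the siNC region near PILRB. Each sequence shown is 300 bases of the hg38 plus strand around the region's middle, with CG pairs in capitals. ADI1, an enzyme of methionine salvage, has 29 CG pairs in chr2:3519029-3519328. SYS1-DBNDD2, a readthrough of the Golgi trafficking gene SYS1, has 27 in chr20:45363091-45363390. RPUSD4, a mitochondrial RNA pseudouridine synthase, has 25 in chr11:126211466-126211765. The siNC region in an intron near PILRB, an immune receptor gene, has 7 in chr7:100344775-100345074.
ADI1: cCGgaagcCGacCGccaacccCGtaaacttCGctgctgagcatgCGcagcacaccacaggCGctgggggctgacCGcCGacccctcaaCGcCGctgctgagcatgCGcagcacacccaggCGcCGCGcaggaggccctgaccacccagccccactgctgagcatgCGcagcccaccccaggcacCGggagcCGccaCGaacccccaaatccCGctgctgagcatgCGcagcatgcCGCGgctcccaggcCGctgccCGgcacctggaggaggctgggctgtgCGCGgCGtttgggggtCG
SYS1-DBNDD2: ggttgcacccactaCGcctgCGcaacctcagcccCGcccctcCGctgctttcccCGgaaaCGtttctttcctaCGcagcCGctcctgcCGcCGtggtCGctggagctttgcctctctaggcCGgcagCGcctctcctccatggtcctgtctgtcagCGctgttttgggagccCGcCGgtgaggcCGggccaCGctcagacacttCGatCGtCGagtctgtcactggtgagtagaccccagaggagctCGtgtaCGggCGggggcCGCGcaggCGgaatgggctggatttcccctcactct
RPUSD4: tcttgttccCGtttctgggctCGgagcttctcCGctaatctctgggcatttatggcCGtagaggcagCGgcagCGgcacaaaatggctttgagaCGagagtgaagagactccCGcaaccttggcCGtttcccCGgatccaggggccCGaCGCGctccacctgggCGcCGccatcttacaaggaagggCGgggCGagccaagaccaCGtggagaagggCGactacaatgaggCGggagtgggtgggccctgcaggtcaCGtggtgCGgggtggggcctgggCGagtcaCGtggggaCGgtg
PILRB: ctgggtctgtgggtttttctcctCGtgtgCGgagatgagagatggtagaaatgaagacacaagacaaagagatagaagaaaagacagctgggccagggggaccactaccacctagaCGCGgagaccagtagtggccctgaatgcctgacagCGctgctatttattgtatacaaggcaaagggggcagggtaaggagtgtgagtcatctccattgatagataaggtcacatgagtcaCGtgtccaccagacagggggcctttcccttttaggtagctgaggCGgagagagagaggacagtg

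A repeat-like region of the siNC class is shown for comparison, with every other copy of its repeat in capitals. In an intron near REELD1 (chr4:146286436-146286723, plus strand) a unit of 24 bases stands 12 times, and neighbouring copies match at 95.5% of bases. The region had 0 covered bases in each siMBD6 library, against 287, 524 and 358 in siNC libraries, and it was also covered in all siNSUN2 (228 to 426 bases) and WT siNC libraries (325 to 571 bases). Reads from such arrays can be placed ambiguously, so values there are uncertain.
REELD1: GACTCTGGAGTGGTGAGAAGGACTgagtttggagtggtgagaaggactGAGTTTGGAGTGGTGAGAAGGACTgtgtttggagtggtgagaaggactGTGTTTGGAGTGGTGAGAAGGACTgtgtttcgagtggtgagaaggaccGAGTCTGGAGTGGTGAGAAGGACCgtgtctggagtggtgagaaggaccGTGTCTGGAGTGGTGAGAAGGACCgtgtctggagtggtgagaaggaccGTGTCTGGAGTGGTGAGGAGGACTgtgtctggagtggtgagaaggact

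The widest regions of the siMBD6 class were named by their mean cover. Near the RPUSD4 start 555, 715 and 301 bases were covered in siMBD6 libraries, and at ADI1 362, 534 and 416 bases, against 0 in each siNC library. Further ones lay in exons nearest to CHMP7, which acts in nuclear envelope sealing, CCDC12, a splicing factor, APLP2, a relative of the amyloid precursor protein, and CCDC69. The widest of all, at 300, 663 and 725 bases, lay between genes in the proximal part of chromosome 22 (chr22:12166110-12166889). ADI1, CCDC69 and APLP2 regions were listed in all 3 WT siNC libraries too, whereas those of CHMP7, CCDC12, SYS1-DBNDD2 and the chromosome 22 region were in none of them. In the siNC class the widest regions lay near PILRB, MROH5, LIPI, OR2Z1, C13orf46, FAM78A, BRD9 and ENSG00000272297, and those near MROH5, C13orf46 and ENSG00000272297 were repeat-like.

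Counting a region as replicated when it was covered in at least 2 of 3 libraries, siMBD6 had 2799 regions and siNC 1682. Of the siMBD6 regions 1363 (48.7%) overlapped a siNC region, and of the siNC regions 1364 (81.1%) overlapped a siMBD6 region. The remaining 1436 siMBD6 and 318 siNC regions had no partner. In the 690 regions covered in all 6 libraries the median extent of cover barely differed. The median covered length was 442, 441 and 372 bases in siMBD6 libraries, against 427, 431 and 413 bases in siNC libraries (exact permutation p = 1), with 318 regions wider and 371 narrower in siMBD6. Of the 690 regions, 19 were wider and 56 narrower in siMBD6 without overlap between the groups. The median fold enrichment there was 5.33, 5.44 and 5.66 in siMBD6 libraries and 5.21, 5.16 and 5.22 in siNC libraries, a narrow gap without overlap (exact permutation p = 0.1). The median −log10 q was 6.31, 6.65 and 6.02 in siMBD6 and 5.48, 5.59 and 5.41 in siNC libraries, also without overlap. The siMBD6 libraries thus held more regions, while the regions common to all libraries were about as wide by their median.

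Single genes were tested in windows of 5 kb to each side of the TSS. Of 20033 windows, 2461 had a peak in at least 3 of the 12 K-562 libraries and entered a limma model. No window passed a Benjamini-Hochberg adjusted p of 0.05 in siMBD6 against siNC (0% called), with 263 (10.7%) at an unadjusted p under 0.05, of which 248 (10.1%) were higher and 15 (0.61%) lower in siMBD6. The lowest adjusted p was 0.0954. Mean cover was higher in siMBD6 in 71.5% of tested windows and the median difference was 0.0897 kb. The 3 siMBD6 libraries lay above all siNC libraries in 185 windows (7.52%) and below them in 24 (0.975%), and in 124 of the 185 the siNC libraries were all at 0. With the fit run on the 6 libraries alone, 121 windows were called, 2 of them lower in siMBD6. Where all libraries of a group stand at 0, their values do not vary, and p can be too small. This applies to the model of all 12 libraries as well, for windows and for bins. How far it lowers p was not tested in either fit.

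The leading windows were chosen by the size of their statistic, and their differences did not pass the adjusted test. ADI1 had 0.362, 0.534 and 0.416 kb of cover in siMBD6 libraries, against 0 kb in each siNC library (difference 0.437 ± 0.0732 kb SE, limma adjusted p = 0.0954). SYS1 had 0.481, 0.361 and 0.501 kb in siMBD6 libraries, against 0 in each siNC library (adjusted p = 0.0954 in limma). Both genes are thus listed at 0 throughout siNC, but ADI1 had 0.441, 0.475 and 0.449 kb in WT siNC libraries while SYS1 had none there. CHMP7, with 0.497, 0.597 and 0.389 kb in siMBD6 libraries, ZNF337, a zinc-finger gene with 0.400, 0.459 and 0.298 kb, and TRIM67, a ubiquitin ligase gene with 0.499, 0.372 and 0.425 kb, were also at 0 in each siNC library (limma adjusted p = 0.0992 each). ZNF337 was listed in all 3 WT siNC libraries (0.281 to 0.356 kb), CHMP7 in none and TRIM67 in 1.

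Windows with less cover in siMBD6 led with SERPINF2, which encodes alpha-2-antiplasmin. It had 0.814, 0.869 and 0.865 kb in siMBD6 libraries, against 1.525, 1.625 and 1.503 kb in siNC libraries, a difference of −0.702 ± 0.131 kb (SE, limma adjusted p = 0.0954). The groups stood far apart in SERPINF2 over this window, and siNSUN2 libraries had 0.841, 0.812 and 0.752 kb and WT siNC libraries 1.562, 0.878 and 1.151 kb, which reach from near the siMBD6 values to those of siNC. The difference was called when libraries were scaled to the same covered length (−1.20 kb, limma adjusted p = 0.0002), but it was −0.0427 kb within 2.5 kb of the TSS (adjusted p = 0.810) and 0 with every peak set to 400 bases. TAF11L3, 1 of a family of near-identical copies whose reads may be misplaced, had 1.03, 1.04 and 1.04 kb in siMBD6 and 1.52, 1.46 and 1.55 kb in siNC libraries (limma adjusted p = 0.223). CLEC18C, also 1 of several near-identical copies, had 0, 0 and 0.239 kb in siMBD6 and 0.311, 0.316 and 0.518 kb in siNC libraries. BCR, the 5′ partner of the BCR-ABL1 fusion, had 0.269, 0 and 0 kb in siMBD6 and 0.299, 0.502 and 0.289 kb in siNC libraries (limma adjusted p = 0.370). Its window was at 0 in each WT siNC library. IGLL5, beside the immunoglobulin lambda locus on the same chromosome, had 0.362, 0.349 and 0 kb in siMBD6 and 0.484, 0.499 and 0.488 kb in siNC libraries.

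**Figure D4:**
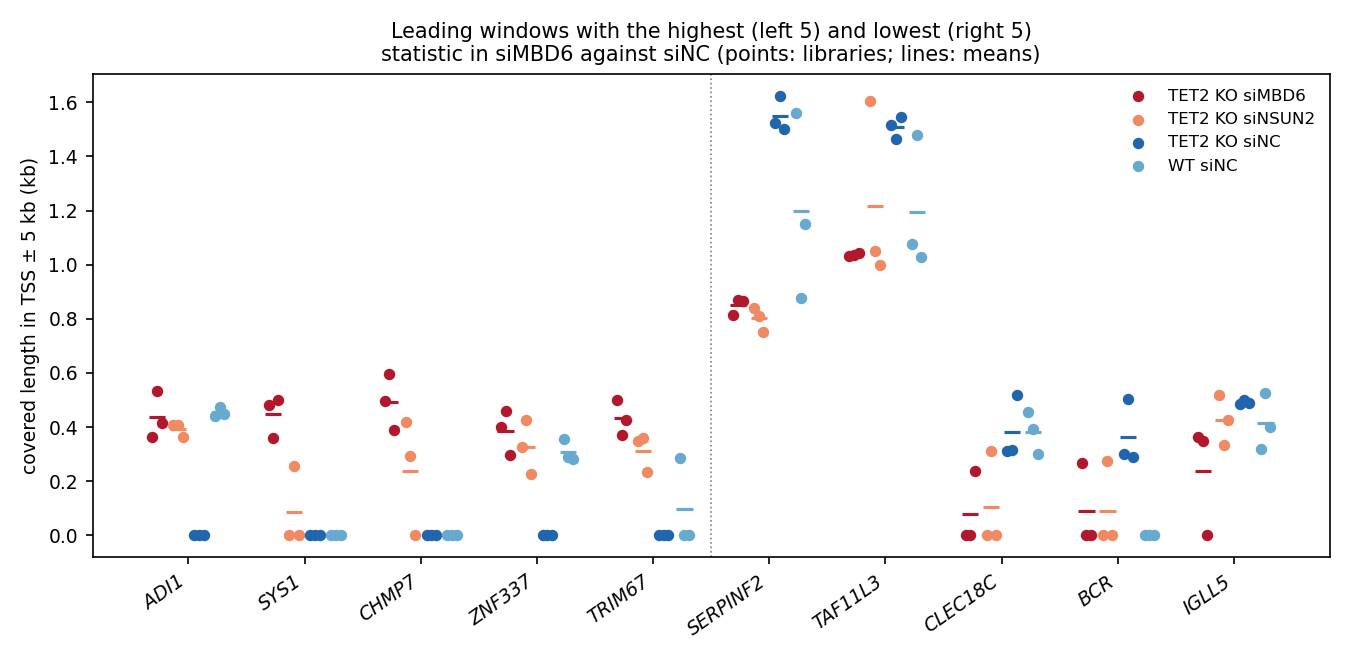
Covered kb within 5 kb of the TSS for the 5 windows that led in each direction, in the 4 K-562 groups (points, 1 per library; lines, means). ADI1, SYS1, CHMP7, ZNF337 and TRIM67 are at 0 in every siNC library and at 0.298 to 0.597 kb in siMBD6 libraries, and SERPINF2 is at 0.814 to 0.869 kb in siMBD6 and 1.503 to 1.625 kb in siNC libraries.

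Genes of the writing and erasing machinery had peaks about as often as genes at large. Any cover in the 6 libraries was found near 6 of 30 PRC1 and PRC2 subunit genes (20%) and 7 of 26 PR-DUB and RNA m5C genes (26.9%), next to 3599 of 20033 protein-coding genes (18.0%). Of the 30 PRC1 and PRC2 genes 5 windows could be tested, and 0 were called, with 1 at an unadjusted p under 0.05. PHF19, an accessory subunit of PRC2, had 0.310, 0.420 and 0 kb in siMBD6 libraries and 0 in each siNC library (limma adjusted p = 0.405). PCGF3, a PRC1 subunit, had 0.5, 0.444 and 0.292 kb in siMBD6 and 0.407, 0.388 and 0.338 kb in siNC libraries, with full overlap. All 5 means were higher in siMBD6, as in 71.5% of all windows, the median difference was 0.0347 kb next to 0.0897 kb over all windows, and the list's promoters with a peak were 6.67% in both groups, next to 7.91% and 4.29% of all promoters in siMBD6 and siNC libraries. Of 26 PR-DUB and RNA m5C genes 3 were tested and 0 called, with a median difference of −0.0957 kb. KDM1B, a histone demethylase, had 0, 0.412 and 0.375 kb in siMBD6 and 0 in each siNC library, while ASXL2, a PR-DUB scaffold, had a peak in 1 siNC library and no siMBD6 library. BAP1 had none in the 6 libraries.

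Among classical Polycomb targets, any cover was found near 3 of 39 HOX genes (7.69%), 7 of 78 developmental transcription factors (8.97%), 5 of 29 WNT ligands and receptors (17.2%) and 0 of 53 clustered protocadherins, next to 18.0% of all protein-coding genes. Of 39 HOX genes 2 were tested, of 78 developmental transcription factors 2, of 29 WNT ligands and receptors 4 and of 53 clustered protocadherins 0, and none was called. HOXC13 had 0 in each siMBD6 library, against 0.370, 0 and 0.308 kb in siNC libraries, and HOXC4 0.310, 0.290 and 0.469 kb in siMBD6 and 0.287, 0.412 and 0 kb in siNC libraries. Promoters with a peak made up 2.56% of the HOX list in siMBD6 and 3.42 ± 1.48% in siNC libraries and 5.75 ± 7.18% and 3.45 ± 3.45% of the WNT list, next to 7.91 ± 0.588% and 4.29 ± 0.409% of all protein-coding promoters (SD, n = 3 each). Clustered histone genes (4 of 74 tested), olfactory receptors (1 of 416) and cytosolic ribosomal protein genes (7 of 102, a list by name that takes in S6 kinases) also had 0 called windows. So had 26 haematopoietic regulators, 18 myeloid and 16 pluripotency genes with 1 window tested each, 30 housekeeping genes with 2, and 16 germline genes and 10 fibroblast markers with 0.

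Zinc-finger genes, many of which encode KRAB repressors of transposable elements, formed the longest list. Any cover in the 6 libraries was found near 85 of 516 (16.5%), next to 18.0% of all protein-coding genes. Of 516 members 58 were tested and 0 called, with 9 higher and 2 lower at an unadjusted p under 0.05 and 5 above all siNC libraries. Over all tested windows the matching shares were 10.1% higher, 0.61% lower and 7.52% above all siNC libraries. Zinc-finger promoters with a peak made up 7.62 ± 0.916% in siMBD6 and 3.42 ± 0.224% in siNC libraries (SD, n = 3 each), close to the shares of all promoters. ZNF555 had 0.543, 0.287 and 0.314 kb and ZNF174 0.269, 0.266 and 0.261 kb in siMBD6 libraries, each against 0 in every siNC library. ZNF33B had 0.269, 0.288 and 0.230 kb in siMBD6 libraries and 0 likewise. In WT siNC libraries ZNF174 had 0.355, 0.357 and 0.368 kb, ZNF555 0 in each and ZNF33B 0.327, 0 and 0 kb. The list's median difference was 0.0922 kb, next to 0.0897 kb over all windows.

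Cell cycle genes, singled out after the values of all lists were seen, had promoters with a peak at 15.3 ± 6.24% of 37 genes in siMBD6 and 5.41% in siNC libraries, next to 7.91% and 4.29% of all promoters. The gap was not tested. The counts were 3, 7 and 7 promoters in siMBD6 libraries, against 2 in each siNC library, and of 6 windows tested 0 were called, with 1 at an unadjusted p under 0.05 and a median difference of 0.0748 kb, below the 0.0897 kb over all windows. CCNB1, which encodes the mitotic cyclin B1, had 0.269, 0.266 and 0.244 kb in siMBD6 and 0 in each siNC library (limma adjusted p = 0.257). PCNA, the sliding clamp of DNA replication, had 0, 0.351 and 0.333 kb in siMBD6 and 0 in each siNC library. CDC20, an activator of the anaphase-promoting complex, had 0.398, 0.374 and 0.371 kb in siMBD6 and 0.321, 0.327 and 0.377 kb in siNC libraries, which overlap.

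Of 35 genes of NF-kB, NOD-like receptor and cytokine signalling 7 were tested and 0 called, with median difference −0.0173 kb. NFKBIB, an inhibitor of NF-kB, had 0.281, 0.379 and 0.333 kb in siMBD6 and 0, 0 and 0.282 kb in siNC libraries, and STAT3 0.364, 0.288 and 0.302 kb and 0, 0 and 0.373 kb. TNFAIP3, a feedback inhibitor of the same pathway, went the other way, at 0 in each siMBD6 library against 0.287, 0 and 0.322 kb in siNC libraries. Of 28 erythroid and megakaryocyte genes 7 were tested and 0 called. KLF1, the master regulator of red cell genes, had 0, 0.39 and 0.258 kb in siMBD6 and 0.459, 0.517 and 0.342 kb in siNC libraries, and HBZ, the embryonic zeta globin, 0.346, 0.381 and 0 kb and 0.309, 0.323 and 0.314 kb.

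The imprinted gene IGF2, a growth factor, had 0, 0.297 and 0.279 kb in siMBD6 and 0.336, 0.369 and 0.347 kb in siNC libraries, and the divergent pair PEG10 and SGCE, which share 1 promoter region, 0.644, 0.663 and 0.716 kb and 0.687, 0.649 and 0.665 kb. Among 32 genes of BCR-ABL signalling 12 were tested and 0 called, with 6 means higher and 6 lower and a median difference of 0.0225 kb. MTOR had 0.341, 0.357 and 0.307 kb in siMBD6 and 0.287, 0.356 and 0 kb in siNC libraries. Of 17 genes fixed by name, 13 were at 0 in all 6 libraries, among them GATA1, GATA2, RUNX1, TAL1, MYB, HBG1, HOXA9, NFKBIA and GAPDH. Of the 6 libraries, SOCS3, CDKN1A and ACTB had a peak in the second siMBD6 library alone, and NSUN2 in the third siNC library alone.

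**Figure D5:**
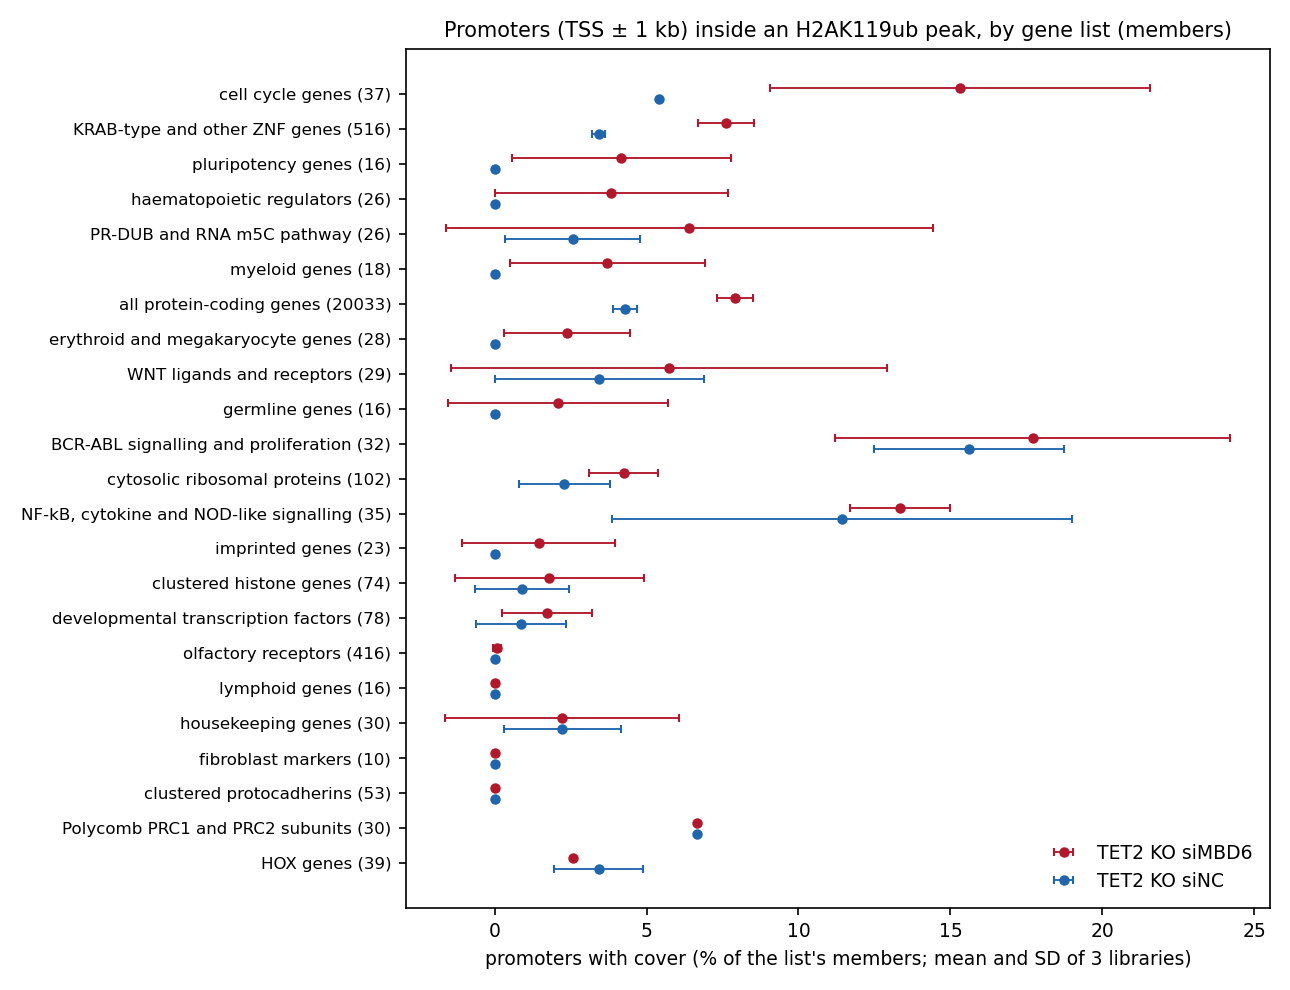
Promoters with an H2AK119ub peak as a share of each gene list (%; points, mean of 3 libraries; bars, SD), siMBD6 above siNC in each row, lists ordered by the difference. Over all 20033 protein-coding genes the shares are 7.91% and 4.29%, the cell cycle list stands at 15.3% and 5.41%, and the HOX list at 2.56% and 3.42%.

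Genome-wide, 4439 bins of 10 kb were tested and 1 (0.0225%) passed the adjusted test, with 439 (9.89%) at an unadjusted p under 0.05. It lay near PILRB (chr7:100340001-100350000) and was at 0 in each siMBD6 library, against 0.826, 0.822 and 0.843 kb in siNC libraries (limma adjusted p = 0.0186). Its call did not hold when any 1 of 5 libraries was left out (adjusted p 0.0687 to 0.128) and held without the first siMBD6 library. When libraries were scaled to the same covered length, 26 bins were called, 3 higher and 23 lower in siMBD6. WT siNC libraries had 0.320, 0 and 0 kb there, so the stretch was covered throughout in TET2 KO siNC libraries alone.

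Chromosomes gained cover unevenly. All 24 had more covered kb on average in siMBD6, and as a share of all cover 5 (3, 6, 11, 12 and X) were higher and 4 (8, 18, 21 and 22) lower in every siMBD6 library than in any siNC library. Chromosome 11 took 5.22 ± 0.284% and 4.33 ± 0.189% in siMBD6 and siNC libraries, chromosome 8 4.38 ± 0.0781% and 5.70 ± 0.343%, and chromosome 22 5.93 ± 0.152% and 7.21 ± 0.205% (SD, n = 3 each). On chromosome 22 the stretch up to the end of BCR took 4.78, 4.52 and 4.29% of cover in siMBD6 libraries, against 5.57, 6.07 and 6.11% in siNC libraries, although it is 0.755% of the genome. In kb the ranges overlapped, at 56.1 ± 12 and 52.4 ± 5.75 kb (SD, n = 3 each, exact permutation p = 0.7), while the rest of chromosome 22 had 1.52 times as much in siMBD6. The share from ABL1 to the end of chromosome 9, 1.26 ± 0.0607% and 1.62 ± 0.197%, was lower too. Copy number in this line was not measured here.

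Set beside the other K-562 groups, the siMBD6 means of length, peaks and promoters lay between those of siNSUN2 and siNC. The siNSUN2 libraries covered 1.74, 1.66 and 1.15 Mb and 1984, 2005 and 1664 promoters, and both ranges overlapped those of siMBD6 (exact permutation p = 0.3 for length and 0.2 for promoters). The overlap rests on the low siNSUN2 library numbered 3, and at each number the siNSUN2 library had more of both than the siMBD6 library. Spike-in peaks were fewer still there, 65, 75 and 68. The make-up of cover was much alike in both knockdown groups. In siMBD6 and siNSUN2 libraries promoters took 37.2% and 35.8% of cover, intergenic sequence 23.2% and 23.3%, and repeat-like peaks 8.56% and 7.97%. CpG density was 58.7 and 57.6 per kb, and ranges overlapped in each of these measures. The near-gap share, 6.64% and 5.76%, was lower in every siNSUN2 library than in any siMBD6 library. In the limma model 0 windows (0%) were called between siMBD6 and siNSUN2, with 138 (5.61%) at an unadjusted p under 0.05, of which 24 were higher and 114 lower in siMBD6, and 0 bins (0%) were called, with 281 (6.33%) at an unadjusted p under 0.05. WT siNC libraries covered 1.10, 0.775 and 0.841 Mb and 1105, 835 and 925 promoters, so that siMBD6 was higher in promoters (exact permutation p = 0.1) and overlapped in length. Between siMBD6 and WT siNC 0 windows (0%) were called, with 260 (10.6%) at an unadjusted p under 0.05, of which 222 were higher and 38 lower in siMBD6. Of the 4439 bins of 10 kb, 60 (1.35%) were called there and 570 (12.8%) stood at an unadjusted p under 0.05. Of the 60 bins 29 were higher and 31 lower in siMBD6 (23 higher and 80 lower when libraries were scaled to the same covered length), although only 4 or 5 bins were called, all lower, when any 1 WT siNC library was left out, and 20 to 27 when any 1 siMBD6 library was. The largest differences lay 259 kb from the nearest gene start, that of NUPR2 (chr7:56370001-56380000), at 0 in each siMBD6 library against 2.303, 1.698 and 1.813 kb in WT siNC libraries (limma adjusted p = 0.000324), and near EFCAB2 (chr1:244970001-244980000), at 0.269, 0.761 and 0.706 kb in siMBD6 libraries against 0 in each WT siNC library (limma adjusted p = 0.0421). TET2 KO siNC libraries had 0.316, 0.286 and 0 kb in the NUPR2 bin and 0, 0 and 0.282 kb in the EFCAB2 bin. Against WT cells the knockdown and the knockout cannot be told apart. The siMBD6 and siNSUN2 groups share their siNC control libraries.

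MBD6 was also depleted in mouse Tet2 KO cells, by shRNA (shMbd6 against shNC) in haematopoietic stem and progenitor cells and by siRNA (siMbd6 against siNC) in embryonic stem cells. The species and, for the progenitors, the means of knockdown thus differ from K-562 cells along with the cell type. In K-562 cells the log2 ratio of covered length was 0.47, against 2.49 in the progenitors (3.73 ± 0.267 and 0.664 ± 0.0165 Mb in knockdown and control, SD, n = 3 each). The difference between both effects, −2.02, had a permutation p of 0.1 (0.2 after adjustment over 2 differences). The smallest p of this test, 0.005, needs effects of opposite direction. Here both effects were increases with groups fully apart, so p could not fall below 0.1. The test therefore cannot decide whether these effects differ. In embryonic stem cells the ratio was 0.25 (4.07 ± 1.65 and 3.47 ± 1.43 Mb in knockdown and control), and the difference from K-562 was 0.22 (permutation p = 0.695).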

How the data were processed

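H2AK119ub was mapped by CUT&Tag in K-562 cells. According to the submitters' processing notes and methods, the authors trimmed reads with Trimmomatic 0.39, aligned them with Bowtie2 2.4.1 to hg38 plus the Drosophila genome, removed duplicates with Picard and ran MACS2 in broad mode on every library at a broad cutoff of 0.01. The study kept peaks found in at least 2 replicates, whereas the deposited lists are per library and not spike-in scaled. In the deposited files each peak carries a fold enrichment over local background and a −log10 p and −log10 q, and the deposited score follows from the −log10 q. These were used only to filter, rank or describe peaks.

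Covered bases, peaks, promoters (GENCODE 44, protein-coding; features in the order promoter, exon, intron and intergenic, exons and introns of protein-coding and lncRNA genes) and base composition were computed with Python 3.11.15, NumPy 2.4.6, pandas 2.3.3, pysam 0.24.0 and samtools 1.23.1, and drawn with matplotlib 3.10.9. Libraries were compared by exact two-sided permutation tests. Covered kb in TSS windows and 10-kb bins with a peak in at least 3 of 12 K-562 libraries were fitted in limma 3.58.1 (R 4.3.3) with all 4 K-562 groups in 1 model, no replicate block and Benjamini-Hochberg adjustment. The interval steps were tested on random intervals and the model on simulated normal values. Those values lack the floor at 0 of the real windows, so the test does not cover groups at 0. Same-numbered siMBD6 libraries and libraries of the other K-562 groups did not deviate together over windows or bins (r at most 0.0534), so numbers were not used as pairs. By peak width and cover, however, the third siMBD6 and siNSUN2 libraries stood apart in the same way.

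Named windows were those called with the largest difference in groups that do not overlap, filled to 5 in each direction by the moderated statistic, at least 20 kb apart and with a gene name. To these were added up to 4 members of each of 22 gene lists by statistic, of which the text gives examples, a fixed set of 17 genes, called bins, and up to 8 regions found in 1 group alone in each direction. The members and lists were chosen with earlier results of these data known. Alternatives were a −log10 q of at least 5, other windows and bins, log2(kb + 0.1), no filter, scaling to the mean covered length, the 6 libraries alone, gaps left out, a replicate block and leaving out each library. Peaks set to 400 bases, the 1900 peaks of highest q, the count of promoters, the repeat measure and the bins against siNSUN2 and WT siNC were added after the data were seen. Repeat classes were not analysed here, and lymphoid genes are not reported here.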

Additional observations from a re-analysis of the deposited data

How the results depend on the processing

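Covered length, number of peaks, promoter count, promoter, intron, intergenic and near-gap shares, CpG density, peak width and the repeat-like share kept their direction in every setting that was run for them. Log2 ratios ranged over 0.36 to 0.64 for covered length, 0.58 to 0.82 for peaks and 0.30 to 1.13 for promoters. The GC difference reversed, at −0.0388 percentage points with gaps left out and −0.183 with peaks of 400 bases. Called windows numbered 7 with −log10 q of at least 5, 21 on log2(kb + 0.1) and 18 at 400 bases, each higher in siMBD6, 1 (lower) when scaled to the mean covered length and 121 (2 lower) with the 6 libraries alone. Called bins numbered 18 with −log10 q of at least 5 (2 lower), 23 as 5-kb bins (3 lower), 24 without a filter (3 lower), 26 when scaled (23 lower), 167 with the 6 libraries alone (20 lower) and 35 at 400 bases (4 lower), and 0 to 3 with a library left out. With −log10 q of at least 5, siMBD6 against siNSUN2 gave 20 called windows (19 lower) and against WT siNC 7 (1 lower), and the last gave 2 (both lower) when scaled. Bins called against siNSUN2 numbered 16 (14 lower) with −log10 q of at least 5, and against WT siNC 103 (80 lower) when scaled, 22 (17 lower) with a replicate block and 4 to 27 with a library left out. Replicated regions in siMBD6 and siNC numbered 942 and 515 (513 and 86 without a partner) with −log10 q of at least 5, and 1446 and 869 (758 and 180) when required in all 3 libraries. TAF11L3 (0.188 kb) and CLEC18C (0.0797 kb) reversed with −log10 q of at least 5. The cause of these changes was not tested.

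A replicate block gave 0 called bins in place of 1 (the bin near PILRB, adjusted p = 0.132) and changed no other call between siMBD6 and siNC, with log2 ratios of 0.47 and 0.65 for covered length and peaks. Across windows, deviations of same-numbered libraries correlated at −0.0233 to 0.0141 between siMBD6 and siNC, −0.0122 to 0.0534 between siMBD6 and siNSUN2 and −0.0184 to 0.00379 between siMBD6 and WT siNC. The third siMBD6 and siNSUN2 libraries share short peaks and low cover, which no label explains. Depth is unknown, and 3 libraries a group limit every exact test to p = 0.1.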
